A study of Drosophila melanogaster with 62 samples.

Results

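Genes known only by a CG number (annotated *Drosophila* genes that have not been given a name) were followed from the late oocyte to nuclear cycle 14 (NC14), taking those whose transcripts were abundant in *HisRFP* oocytes and largely gone by NC10. Of 1596 such genes with a mean of at least 10 CPM (reads per 1000000 counted reads) in *HisRFP* oocytes, 92 had a *HisRFP* NC10 mean of at most 25% of the oocyte mean (5.76%). Among 4291 genes with other names at the same oocyte level, 173 did so (4.03%). The whole table held 17510 genes, of which 6047 carried a CG number. The 92 genes were chosen by their measured *HisRFP* oocyte and NC10 values, so those values are given as a description and without a test, as are comparisons of *brat*-mutant or *brat* het libraries with *HisRFP* at these 2 stages. Just inside the oocyte limit lay *CG43392* (10.6 CPM) and *CG42564* (10.7 CPM), and just outside it *CG12517* (9.58 CPM) and *CG4239* (9.57 CPM). Just inside the limit on loss lay *CG10527* (24.9% of its oocyte mean at NC10) and *CG3792* (24.8%), and just outside it *CG11396* (25.3%) and *CG9752* (25.8%).

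The study sequenced RNA from single stage-matched oocytes and embryos to ask whether the transcription factor Zelda (ZLD), made too early when the RNA-binding protein Brain Tumor (BRAT) is lost, switches genes on ahead of time. The 3 maternal genotypes used all carried the His2Av-RFP histone transgene that allows nuclear cycles to be counted in living embryos. The *brat*-mutant samples came from mothers with a deficiency over the *brat* fs1 allele (Df/fs1), so the genotype named is that of the mother. The *brat* het samples came from heterozygous mothers, and which of the *brat* alleles each carried was not given for single libraries. The control, *HisRFP*, carried the transgene and no *brat* mutation. Each library held 1 late oocyte taken from the ovary or 1 laid embryo. *brat*-mutant and *HisRFP* samples ran through oocytes, NC10, NC12, NC13 and an early and a later point in NC14 (4 libraries each, 3 at NC13), and *brat* het samples covered oocytes, NC10, NC12 and later NC14 (4 libraries each). Replicates are given the letters A to D (A, C and D at NC13), and nothing states whether they came from separate mothers, so the spread between them may be partly technical.

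A fly egg is loaded by its nurse cells with maternal mRNAs, and most of the genome stays silent through the first nuclear cycles. During that time many maternal mRNAs are degraded, first by factors that are themselves maternal and, once zygotic transcription begins, also by zygotic products. BRAT is a translational repressor that binds target mRNAs and takes part in their clearance. The late oocyte is covered by somatic follicle cells that make the eggshell, and their RNA can remain with a dissected oocyte.

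The 62 libraries held 4000899 to 41029921 counted reads (median 13015435.5). *brat* itself lay at 506 to 556 CPM in *brat*-mutant oocytes, 445 to 846 CPM in those of *brat* het mothers and 605 to 938 CPM in *HisRFP* oocytes. The *brat*-mutant oocytes thus lay below the *HisRFP* ones and overlapped the *brat* het ones. At early NC14 it lay at 857 to 915 CPM in *brat*-mutant and 86.5 to 94.7 CPM in *HisRFP* embryos. The fs1 allele carries an amino acid change, so transcript level alone does not settle the genotype. Transcripts of 11 oocyte and germline genes (*osk*, *bcd*, *gcl* and others) summed to 6259 to 8167 CPM in the 12 oocytes. The following 3 libraries stood apart in ways that touch the results. *HisRFP* oocyte B held transcripts of male accessory gland genes and the highest level of a list of 10 muscle genes (53.0 CPM, against 6.36 CPM or less in the other oocytes). *brat*-mutant NC10 embryo A held more transcript of the genes described here than its 3 sister embryos, and its muscle list stood at 21.9 CPM, against 1.61 to 2.28 CPM in the others. Its accessory gland transcripts summed to 5.34 CPM, against 0.240 CPM or less in the others. Why this library differs was not tested. *brat*-mutant NC12 embryo C was likewise above its sisters.

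The 92 genes fell into 3 patterns in the *HisRFP* oocytes. In 59 genes every *HisRFP* oocyte held at least 25% of the group mean, in 18 genes the oocytes were uneven, and in 15 genes more than 90% of the oocyte signal came from 1 oocyte. The grouping was made after the values were seen, and no test was run on it. Oocyte means over the 92 genes ranged between 10.6 and 381 CPM (median 40.4 CPM), and the share left at *HisRFP* NC10 was between 0% and 24.9% (median 10.7%), while over all 5887 genes at this oocyte level the median share was 110%. The median predicted protein was 308 residues for the 59 genes, 518.5 for the uneven 18 and 298 for the 15, against 417 for the 1596 CG-number genes at this level. Counting did not use strand, and 43 of the 92 genes overlap a gene on the other strand, 7 overlap a gene on the same strand (3 of them both) and 45 overlap none.

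**Figure D1:**
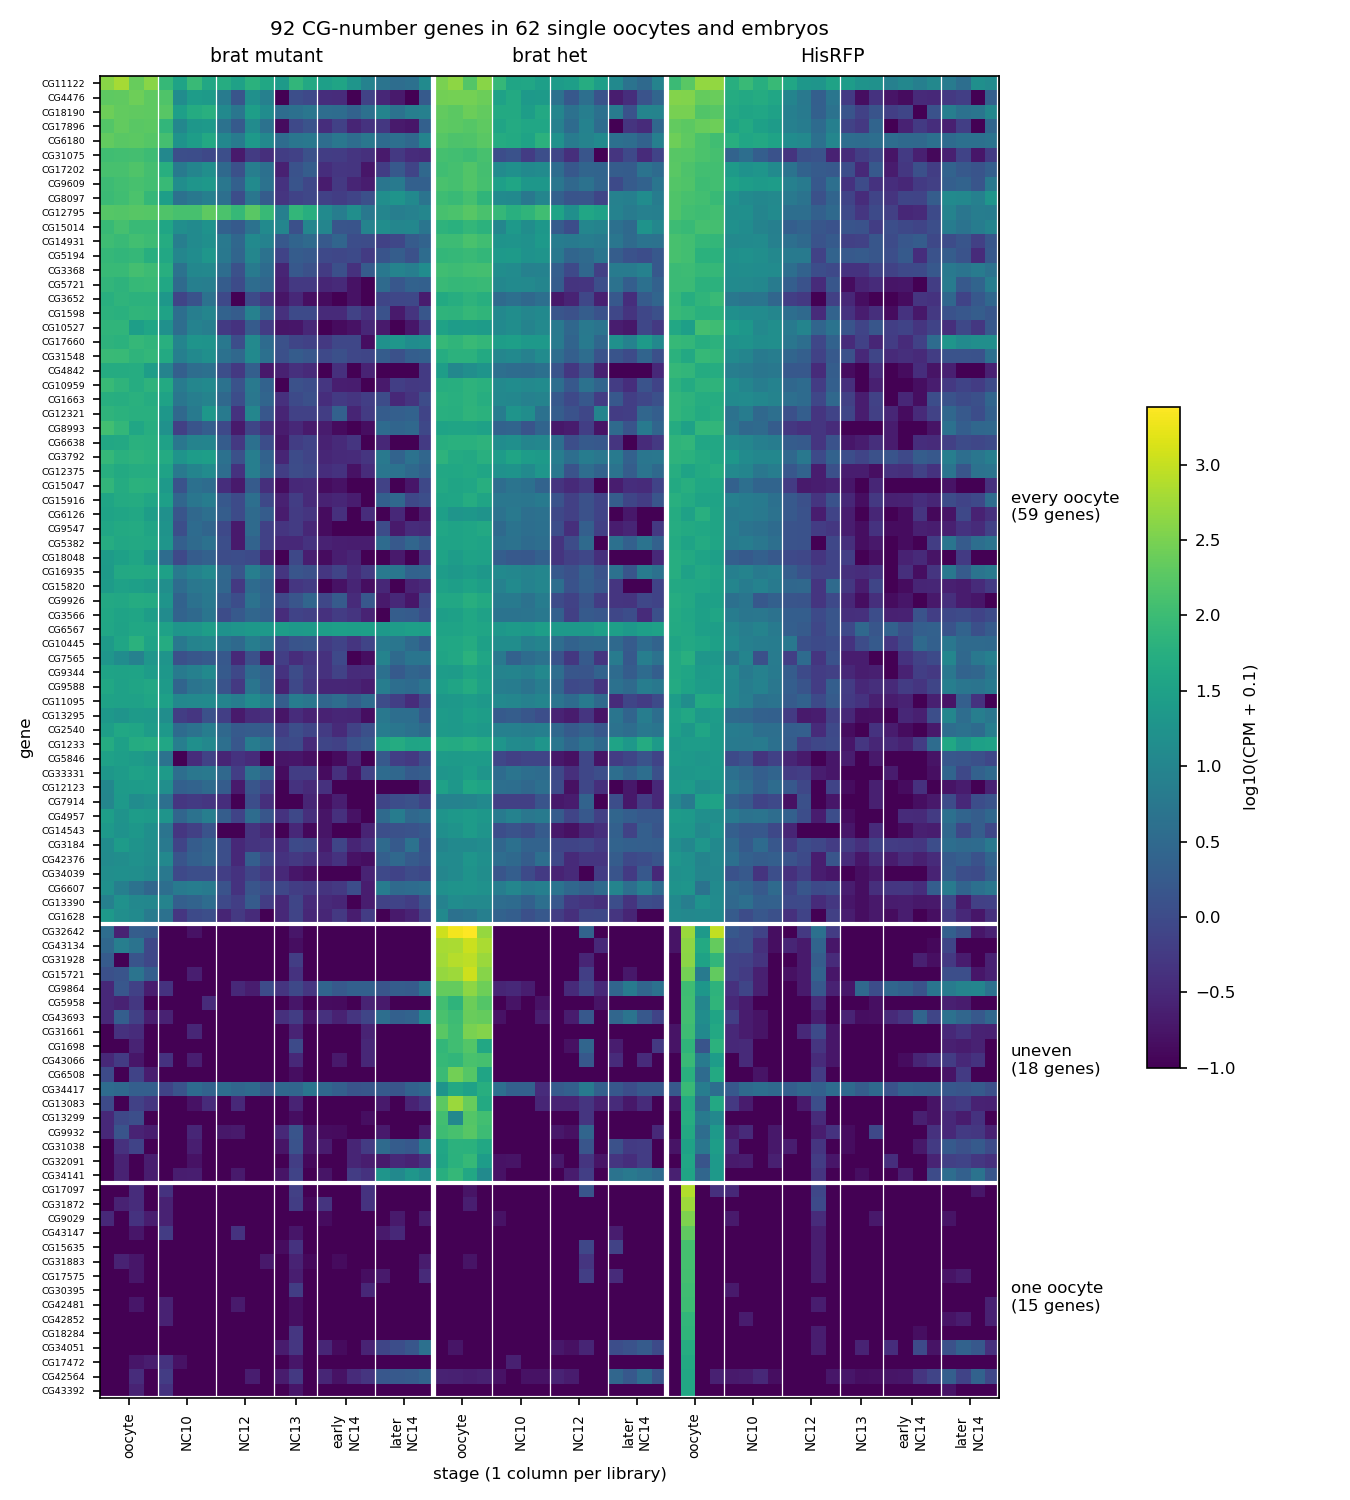
Level of each of the 92 genes (rows) in each of the 62 libraries (columns, by genotype and then stage), coloured by log10(CPM + 0.1), with the genes grouped by their pattern in *HisRFP* oocytes. Most of the 59 genes present in every oocyte are dim after NC10, with *CG12795*, *CG6567* and, at later NC14, *CG1233* among those that are not, the 18 uneven genes are bright in 7 of the 12 oocytes, and the 15 genes of the third pattern are bright in 1 oocyte.

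The 15 genes of the third pattern were carried by *HisRFP* oocyte B alone. Together they held 2758 CPM there, against 0.455 CPM or less in the 3 other *HisRFP* oocytes. The highest were the lipase-family gene *CG17097* (746 CPM, 14712 reads), the related *CG31872* (554 CPM), *CG9029* (341 CPM) and *CG43147* (205 CPM). *CG17575*, which encodes a cysteine-rich seminal fluid protein, had 118 CPM in this oocyte and at most 0.559 CPM in the 61 other libraries. In the 61 other libraries 13 of the 15 never passed 1.305 CPM, and the exceptions were *CG34051* (up to 4.05 CPM) and *CG42564* (up to 3.499 CPM), both highest at later NC14. Of 35 known accessory gland genes, a list added after these values were seen, 25 stood above 1 CPM in the same oocyte and their sum was 2603 CPM, against 0 to 4.68 CPM in the other 11 oocytes. Several of the 15 lie side by side in dm6. *CG31872* (2L, 10639931 to 10643539), *CG18284* (2L, 10643971 to 10645891) and *CG17097* (2L, 10646415 to 10650152), all on the plus strand and all of the lipase family, are separated by 432 and 524 bases. *CG42481* and *CG43147*, which encode predicted proteins of 49 and 44 residues, are 818 bases apart on the minus strand of 3L. None of the 15 passed the read filter in a comparison of stages before early NC14, so their place among the 92 rests on that single oocyte. Choosing the genes without this library left 69 genes, of which 68 were among the 92.

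The 18 uneven genes were high in the same 7 oocytes, namely the 4 *brat* het oocytes and *HisRFP* B, C and D. For each of them the lowest of these 7 values lay above the highest of the 5 others, which were the 4 *brat*-mutant oocytes and *HisRFP* A. The split into 7 and 5 was read from these same values, and the genes were grouped as uneven by their *HisRFP* oocyte values. How many of all genes separate over this split was not counted, so the separation is a description only. Their sum was 8.29 to 19.7 CPM in *brat*-mutant oocytes, 3701 to 8014 CPM in the *brat* het ones and 2.13, 2688, 205 and 2007 CPM in *HisRFP* oocytes A to D. At NC10 it was 1.35 to 4.37 CPM in *brat*-mutant, 0.639 to 4.21 CPM in *brat* het and 3.66 to 8.499 CPM in *HisRFP* embryos. The sum of 21 eggshell genes (chorion and vitelline membrane proteins made by follicle cells) moved with it, at 224 to 413 CPM in *brat*-mutant oocytes, 18222 to 56847 CPM in *brat* het oocytes, 241 CPM in *HisRFP* A and 15965, 6042 and 30305 CPM in *HisRFP* B, C and D. Of these 21 genes, 10 to 14 stood above 1 CPM in the 7 high oocytes and 2 to 8 in the 5 others, so the sum is not that of the whole list. In whole-oocyte RNA, fewer follicle cells and less RNA per follicle cell cannot be told apart, and neither can the *brat*-mutant genotype and the low eggshell signal of all its oocytes. The sums of 10 fat body and hemocyte genes were 0.255 to 9.97 CPM in all 12 oocytes.

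*CG32642*, the member with the highest *HisRFP* oocyte mean (381 CPM), shows the pattern. It had 3.66, 0.159, 1.86 and 1.66 CPM in *brat*-mutant oocytes, 1110, 2051, 2423 and 494 CPM in *brat* het oocytes and 0.0708, 529, 22.7 and 973 CPM in *HisRFP* oocytes. *CG43134*, an X-linked gene for a predicted protein of 82 residues that lies 4487 bases from the eggshell gene *Femcoat*, had 2.80, 7.31, 4.56 and 0.766 CPM in *brat*-mutant oocytes, 642, 669, 1091 and 666 CPM in *brat* het oocytes and 0.0708, 433, 45.5 and 227 CPM in *HisRFP* oocytes. The aspartic peptidase genes *CG31928* and *CG31661* (2L, 3384 bases apart) and *CG6508*, another of that family, belong to the same group, as do the transporter gene *CG9864*, the CRAL-TRIO domain gene *CG5958* and the zinc finger gene *CG9932*.

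**Figure D2:**
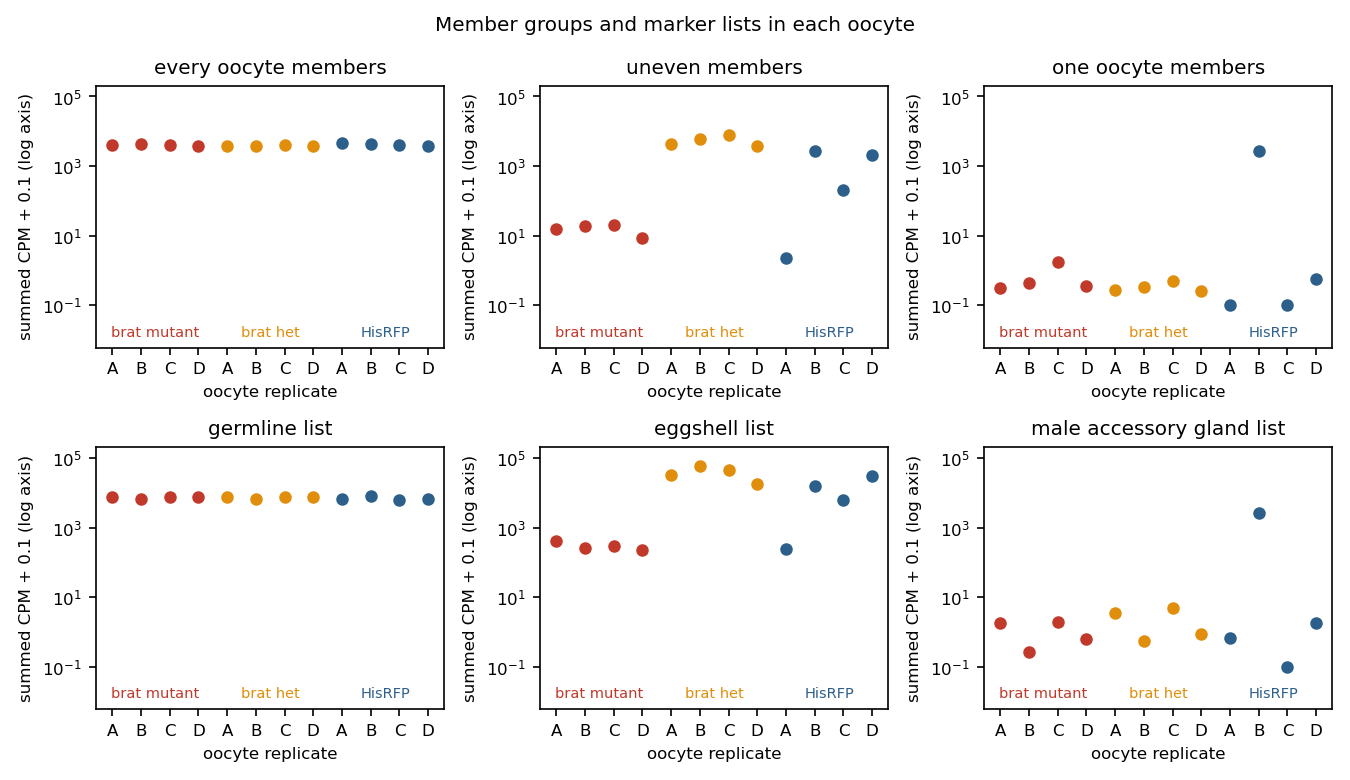
Summed CPM + 0.1 in each of the 12 oocytes (log axis, 1 point an oocyte, coloured by genotype) for the 59 genes present in every oocyte, the 18 uneven genes, the 15 genes of 1 oocyte and the germline, eggshell and male accessory gland lists. The sum of the 59 lies between 3727 and 4593 CPM throughout, while the uneven genes and the eggshell list are both high in the 4 *brat* het oocytes and *HisRFP* B, C and D, and the 15 genes and the accessory gland list in *HisRFP* B.

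Between *brat*-mutant and *brat* het oocytes, 77 of the 92 genes had enough reads to test. Differential expression here and below was called at an adjusted p under 0.05 (Benjamini-Hochberg over all genes tested) and an absolute log2 fold change over 1 in edgeR's quasi-likelihood test. Of the 77, 19 were lower in *brat*-mutant oocytes, where 6.66% of all genes tested were lower, and 1 was higher, where 0.839% of all genes were. All 18 uneven genes were among the 19. Their reads came almost wholly from the *brat* het oocytes, so that most of them could pass the read filter only through those oocytes, and the count is given as a description. *CG31661* stood at 0 to 0.318 CPM in *brat*-mutant and 111 to 367 CPM in *brat* het oocytes, and *CG1698* at 0 to 0.169 CPM in *brat*-mutant and 42.3 to 166 CPM in *brat* het oocytes. Among the 59 genes present in every oocyte only *CG7565* was lower (15.4 CPM in *brat*-mutant and 45.3 CPM in *brat* het oocytes, log2 difference -1.53, SE 0.29, adjusted p = 0.00847). *CG4842*, of the short-chain dehydrogenase family, was higher (44.3 CPM in *brat*-mutant and 17.6 CPM in *brat* het oocytes, log2 difference 1.35, SE 0.30, adjusted p = 0.0192). The call on *CG4842* was lost without *brat*-mutant oocyte B or *brat* het oocyte C. The summed oocyte level of the 59 overlapped between genotypes and averaged 4049 ± 183 CPM in *brat*-mutant, 3819 ± 112 CPM in *brat* het and 4130 ± 334 CPM in *HisRFP* oocytes (SD, n = 4 each).

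The 59 genes include several for mitochondrial and metabolic enzymes, such as *CG17896* (methylmalonate-semialdehyde dehydrogenase), *CG31075* (aldehyde dehydrogenase family), *CG6638* (isovaleryl-CoA dehydrogenase), *CG9547* (glutaryl-CoA dehydrogenase) and *CG16935* (mitochondrial trans-2-enoyl-CoA reductase). Others are *CG4476*, a neurotransmitter-transporter family member, *CG18190*, of the EB1 microtubule-end-binding family, *CG6180*, of the phosphatidylethanolamine-binding family, *CG12321* and *CG9588*, which are homologs of proteasome assembly factors, and *CG9344*, a homolog of the Lsm6 RNA-binding subunit. Per kilobase of exon, the *HisRFP* oocyte means of the most abundant were 220 CPM for *CG18190*, 180 CPM for *CG17202*, 173 CPM for *CG6180*, 124 CPM for *CG4476*, 100 CPM for *CG17896*, 81.1 CPM for *CG31075* and 24.9 CPM for *CG11122*, whose total of 304 CPM was the highest of the 59.

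At NC10 the 59 genes summed to 2119, 473, 707 and 828 CPM in *brat*-mutant embryos A to D, 803, 825, 638 and 781 CPM in *brat* het embryos and 733, 684, 571 and 541 CPM in *HisRFP* embryos. All groups overlapped, and embryo A of the *brat*-mutant group held more than any other. As a share of its own genotype's oocyte mean, the median gene was at 24.3% in *brat*-mutant, 18.9% in *brat* het and 15.2% in *HisRFP* NC10 embryos, and 26 genes in *brat*-mutant and 17 in *brat* het embryos stood above 25%, a level the selection excludes in *HisRFP*. Embryo A was above embryos B, C and D for 56 of the 59 genes, with a median ratio of 4.49 to their mean. Without it the *brat*-mutant median was 11.7% and 6 genes stayed above 25% (*CG12795*, *CG3792*, *CG6567*, *CG9344*, *CG11095* and *CG6607*).

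**Figure D3:**
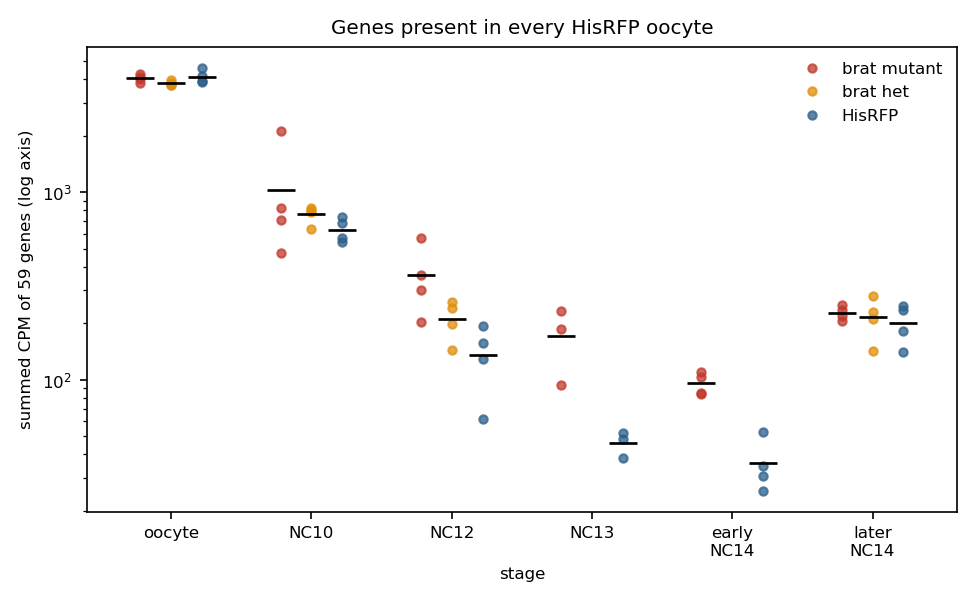
Summed CPM of the 59 genes present in every oocyte at each stage (log axis), with 1 point a library and a bar at each group mean, for *brat*-mutant, *brat* het and *HisRFP* samples. The sums are between 3727 and 4593 CPM in oocytes, between 473 and 2119 CPM at NC10, lowest at early NC14 (83.5 to 110 CPM in *brat*-mutant and 25.6 to 52.5 CPM in *HisRFP* embryos) and between 141 and 280 CPM at later NC14.

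The *brat*-mutant and *brat* het libraries did not enter the selection and show how the same transcripts fared there. In *brat* het samples 77 of the 92 genes had enough reads, and 75 were lower at NC10 than in oocytes (16% of all genes tested were lower), with a median log2 change of -2.51 over the 59 genes, 57 of which were called, against -0.01 over all genes. All 18 uneven genes were among the 75. Of these, 17 had at most 3 reads in every *brat* het NC10 embryo and passed the read filter only through the oocytes. Their call was fixed in advance, so the count of 75 is given as a description. In *brat*-mutant samples 63 genes had enough reads and 55 were lower (9.12% of all genes tested), of which 52 were among the 59, at a median log2 change of -2.20 against 0.00 over all genes. The other 3 called were uneven genes that likewise passed the filter only through the oocytes. Without embryo A 59 of the 63 were called and the median over the 63 was -3.25, and without embryo C or embryo D 31 were called. Among the 59 genes *CG31075* had the largest fitted loss in *brat*-mutant samples. It had 10.8, 1.03, 0.978 and 0.799 CPM in *brat*-mutant NC10 embryos, against 108, 114.6, 120 and 101 CPM in *brat*-mutant oocytes (log2 change -5.40, SE 0.80, adjusted p = 0.00436). In *brat* het samples it had 1.004, 1.15, 0.504 and 1.02 CPM at NC10, against 122, 112, 101 and 130 CPM in oocytes, and in *HisRFP* samples 2.38, 3.71, 1.97 and 1.17 CPM at NC10, against 179, 167, 137 and 124 CPM in oocytes. No NC10 value in any genotype came near an oocyte value. *CG5846* (log2 change -4.83, SE 0.94) and the thioredoxin-family gene *CG8993* (-4.13, SE 0.96) followed in *brat*-mutant samples.

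*CG4476* had 148, 13.7, 26.5 and 24.2 CPM in *brat*-mutant NC10 embryos, against 195, 207, 258 and 200 CPM in *brat*-mutant oocytes (log2 change -2.14, SE 0.67, adjusted p = 0.0378). In *brat* het samples it had 32.3, 45.3, 23.2 and 24.0 CPM at NC10, against 284, 295, 290 and 249 CPM in oocytes (-3.27, SE 0.21, adjusted p = 1.69e-06). Embryo A apart, the NC10 levels of the *brat*-mutant and *brat* het groups overlapped. *CG18190* was at 173, 29.5, 49.2 and 57.1 CPM in *brat*-mutant NC10 embryos, against 257, 212, 205 and 197 CPM in *brat*-mutant oocytes (log2 change -1.61, SE 0.48, adjusted p = 0.0322), so that embryo A lay closest to the oocytes. In *HisRFP* it was at 44.9, 36.2, 40.0 and 32.8 CPM at NC10, against 301, 309, 158 and 178 CPM in oocytes. *CG11122* was at 93.7 CPM or less in every NC10 library, against a wide spread among oocytes of 400, 627, 231 and 401 CPM in *brat*-mutant, 322, 437, 162 and 410 CPM in *brat* het and 95.8, 180, 471 and 470 CPM in *HisRFP* samples.

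All 18 uneven genes were lower in *brat* het NC10 embryos than in *brat* het oocytes, and *CG32642*, *CG43134* and *CG31928* had no read in any of the 4 *brat* het NC10 embryos. For 17 of the 18 the call was fixed by the read filter, as stated above, and the levels are given as a description. With 3 reads a library as the floor, *CG32642* was at least 7744-fold lower, *CG43134* at least 3909-fold lower and *CG31928* at least 3567-fold lower there than in *brat* het oocytes. *CG34417*, a calponin-homology domain gene, kept a low level in other libraries and was lower by a log2 change of -4.24. In *brat*-mutant samples 14 of the 18 had too few reads to be tested, since their oocytes held almost none to begin with.

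At NC10 no member was called between *brat*-mutant and *brat* het embryos. Of the 60 with enough reads, 52 had a positive log2 difference (median 0.38, against 0.04 over all genes), and 0.175% of all genes tested were called in either direction (12 of 6848, with 489 at an unadjusted p under 0.05). DESeq2 called 0 members as well. Without *brat*-mutant embryo A, 8 of the genes were positive and the median was -0.49, so the direction rested on that embryo's library. The change between oocyte and NC10 was also compared between the 2 genotypes. Of 77 genes 4 were called, all uneven genes and all with the higher change in *brat*-mutant samples, where 1.62% of all genes were called in that direction. *CG43066*, *CG9932* and *CG34141* passed the read filter only through the *brat* het oocytes and had at most 1.27 CPM in any *brat*-mutant oocyte, so a smaller loss in *brat*-mutant samples was fixed by where they started and nothing is read from these calls. *CG34417* had 0.667, 1.22, 3.26 and 2.40 CPM in *brat*-mutant NC10 embryos, against 3.44, 3.02, 2.03 and 2.04 CPM in *brat*-mutant oocytes, and 3.83, 2.16, 2.20 and 0.256 CPM in *brat* het NC10 embryos, against 18.4, 43.8, 32.5 and 56.3 CPM in *brat* het oocytes. The NC10 levels overlapped and the oocyte levels did not. The count was 0 without *brat*-mutant NC10 embryo C, 2 without *brat*-mutant oocyte D, *brat*-mutant NC10 embryo B or *brat* het NC10 embryo A, B or D, 1 without *brat* het NC10 embryo C, and 8 without *brat*-mutant NC10 embryo A, when 4 further genes showed a larger loss in *brat*-mutant samples.

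*CG12795* and *CG6567* fell least between oocyte and NC10 in *brat* het samples. Of the members with enough reads there they alone were not called lower at NC10, and at NC12 they had the largest log2 differences of *brat*-mutant to *HisRFP* embryos. *CG12795* (FBgn0031535, 2L, 3452466 to 3453755 on the plus strand, a predicted protein of 253 residues) had 171, 161, 178 and 168 CPM in *brat*-mutant oocytes, 129, 139, 172 and 133 CPM in *brat* het oocytes and 151, 115.1, 104 and 114.8 CPM in *HisRFP* oocytes. At NC10 it had 147, 129, 131 and 195 CPM in *brat*-mutant, 83.7, 58.7, 75.1 and 109 CPM in *brat* het and 14.5, 15.4, 9.92 and 12.4 CPM in *HisRFP* embryos, so the 3 genotypes did not overlap. The selection required a low *HisRFP* mean at NC10, so the place of *HisRFP* below the others there is description only. The log2 change between oocyte and NC10 was -0.27 (SE 0.13, adjusted p = 0.127) in *brat*-mutant and -0.91 (SE 0.16, adjusted p = 0.00107) in *brat* het samples, both short of the fold threshold, and the difference between *brat*-mutant and *brat* het at NC10 was 0.92 (SE 0.19, adjusted p = 0.0878).

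At NC12 *CG12795* had 137, 86.6, 182 and 89.5 CPM in *brat*-mutant, 35.2, 15.1, 38.8 and 32.1 CPM in *brat* het and 3.69, 3.68, 2.12 and 3.08 CPM in *HisRFP* embryos. The log2 difference was 5.24 (SE 0.29, adjusted p = 9.02e-06) for *brat*-mutant against *HisRFP* and 3.25 (SE 0.30, adjusted p = 0.00027) for *brat* het against *HisRFP*, tests that share the same *HisRFP* embryos. *brat*-mutant against *brat* het, a comparison added after the data were seen, gave 2.004 (SE 0.31, adjusted p = 0.00808). The 3 genotypes were ordered without overlap. At NC13 it stood at 7.63, 79.1 and 56.6 CPM in *brat*-mutant and 0.841, 0.386 and 0.878 CPM in *HisRFP* embryos (log2 difference 5.998, SE 0.94, adjusted p = 0.0236, or 0.151 with the replicate letter as a block), and at early NC14 at 12.6, 7.10, 14.5 and 5.51 CPM in *brat*-mutant and 0.590, 0.210, 0.231 and 0.853 CPM in *HisRFP* embryos (4.35, SE 0.55, adjusted p = 0.000482). At NC13 *CG12795* passed the read filter only through the *brat*-mutant embryos, so that call is given as a description. By later NC14 the genotypes overlapped, with 9.93, 7.40, 8.31 and 10.3 CPM in *brat*-mutant, 8.76, 6.57, 7.998 and 7.68 CPM in *brat* het and 9.17, 5.07, 7.21 and 6.75 CPM in *HisRFP* embryos. In *HisRFP* this was higher than at NC12 (log2 change 1.49, SE 0.26, adjusted p = 0.000487), whereas in *brat*-mutant (-3.37, SE 0.26, adjusted p = 1.70e-06) and *brat* het embryos (-1.62, SE 0.27, adjusted p = 0.000536) it was lower. The gene overlaps *Cog3* (a Golgi complex subunit) on the other strand, which at NC12 averaged 23.1 ± 12.4 CPM in *brat*-mutant, 18.0 ± 7.52 CPM in *brat* het and 44.2 ± 10.3 CPM in *HisRFP* embryos (SD, n = 4 each) and so ran the other way at that stage. At NC10 *Cog3* was alike, with means of 52.4 CPM in *brat*-mutant, 50.6 CPM in *brat* het and 53.1 CPM in *HisRFP* embryos. In oocytes its means were 58.6, 61.2 and 45.1 CPM in the same order, lowest in *HisRFP* as for *CG12795*. At early NC14 they were 2.30 CPM in *brat*-mutant and 9.23 CPM in *HisRFP* embryos. The part of *Cog3* reads in the *CG12795* count was not tested.

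**Figure D4:**
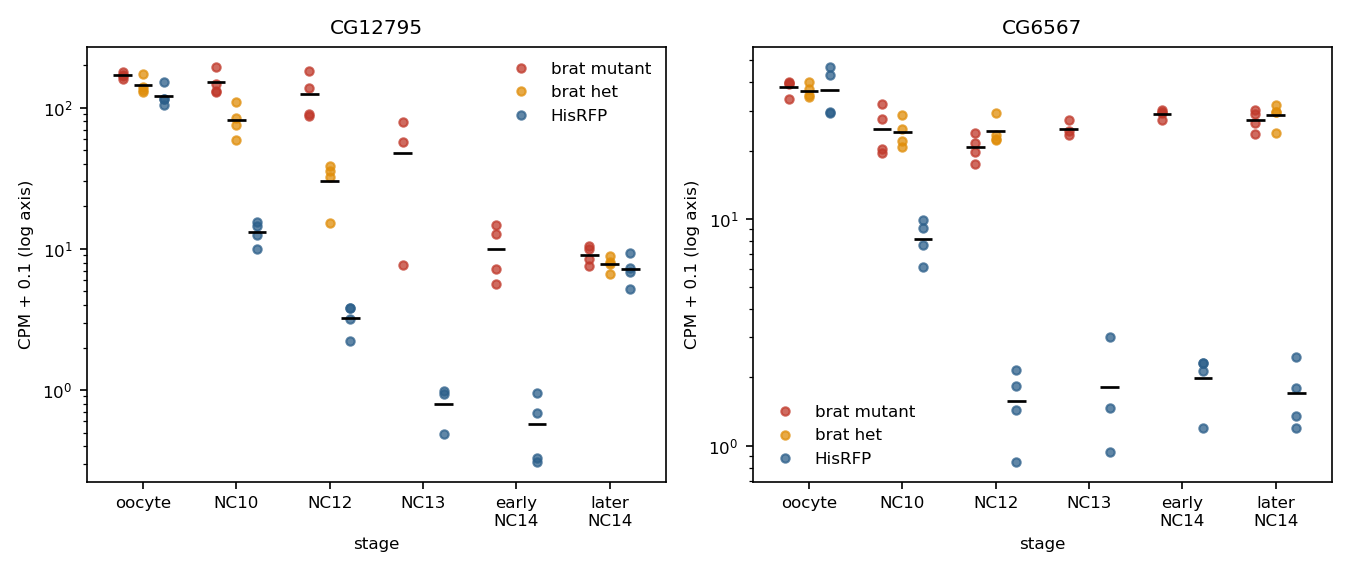
CPM + 0.1 of *CG12795* and *CG6567* at each stage (log axis), 1 point a library with a bar at each group mean, for *brat*-mutant, *brat* het and *HisRFP* samples. *CG12795* is highest in *brat*-mutant and lowest in *HisRFP* embryos at NC10 and NC12 and lies at 5.07 to 10.3 CPM in every later NC14 embryo, while *CG6567* stays between 17.3 and 40.1 CPM in every *brat*-mutant and *brat* het library but falls to 2.91 CPM or less in *HisRFP* embryos from NC12 on. The low *HisRFP* means of both genes at NC10 were required by the selection.

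*CG6567* (FBgn0037842, 3R, 10853374 to 10854451 on the minus strand, 235 residues) encodes a protein of the acyl-protein thioesterase and lysophospholipase family. Oocytes held like amounts, with 39.1, 33.5, 40.0 and 39.7 CPM in *brat*-mutant, 35.0, 34.3, 40.1 and 37.3 CPM in *brat* het and 46.8, 43.1, 29.4 and 29.1 CPM in *HisRFP* samples. At NC10 it had 31.9, 19.4, 20.3 and 27.6 CPM in *brat*-mutant, 20.6, 24.8, 21.9 and 28.5 CPM in *brat* het and 9.74, 7.54, 8.97 and 6.002 CPM in *HisRFP* embryos. At NC12 they were 17.3, 19.6, 21.5 and 23.8 CPM in *brat*-mutant and 22.2, 23.3, 22.4 and 29.2 CPM in *brat* het embryos, against 2.06, 1.73, 0.747 and 1.33 CPM in *HisRFP* embryos. At later NC14 they were 23.5, 26.3, 30.1 and 29.0 CPM in *brat*-mutant and 29.4, 23.9, 29.5 and 31.8 CPM in *brat* het embryos, against 1.25, 2.37, 1.09 and 1.69 CPM in *HisRFP* embryos. *brat*-mutant exceeded *HisRFP* at NC12 (log2 difference 3.74, SE 0.27, adjusted p = 5.22e-05), NC13 (3.75, SE 0.55, adjusted p = 0.0194, or 0.118 with the block), early NC14 (3.89, SE 0.28, adjusted p = 1.28e-05) and later NC14 (4.06, SE 0.28, adjusted p = 2.05e-05). *brat* het exceeded the same *HisRFP* embryos at NC12 (4.02, SE 0.26, adjusted p = 2.64e-05) and later NC14 (4.14, SE 0.28, adjusted p = 4.39e-05). The *brat* genotypes overlapped at both stages, with log2 differences of *brat*-mutant to *brat* het of 0.08 (SE 0.17) at NC10 and -0.29 (SE 0.16, adjusted p = 0.431) at NC12. The gene overlaps *CG4565*, whose group means were 0.640 to 3.38 CPM.

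At NC12 the 59 genes summed to 362, 204, 572 and 302 CPM in *brat*-mutant, 240, 144, 261 and 199 CPM in *brat* het and 194, 157, 61.97 and 129 CPM in *HisRFP* embryos. Between *brat*-mutant and *HisRFP*, 49 of the 92 genes had enough reads, 5 were higher (3.5% of all genes tested were higher) and 1 was lower (2.14%), at a median log2 difference of 0.57 against -0.01 over all genes. *brat*-mutant embryo C was above its sisters for 47 of the 59 genes, with a median ratio of 2.34, and without it the median was 0.12, 27 of 48 differences were positive and 4 genes were called. Without *brat*-mutant embryo B 11 were called. Besides *CG12795* and *CG6567* the higher genes were *CG33331* (log2 difference 2.93, SE 0.70), *CG11095* (2.43, SE 0.31, adjusted p = 0.00119) and the zinc finger gene *CG1233* (1.92, SE 0.51). *CG33331* averaged 0.308 CPM in *HisRFP* NC12 embryos and passed the read filter only through the *brat*-mutant ones, so its call is given as a description. It overlaps *CG33332* on the same strand, which at NC12 averaged 70.2 CPM in *brat*-mutant and 63.4 CPM in *HisRFP* embryos. *CG11095* had 9.47, 6.98, 12.7 and 7.58 CPM in *brat*-mutant, 4.71, 3.37, 6.34 and 3.005 CPM in *brat* het and 1.69, 2.27, 0.871 and 1.75 CPM in *HisRFP* NC12 embryos, the same order of genotypes without overlap as for *CG12795*.

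*CG10527* was lower in *brat*-mutant NC12 embryos, with 0.464, 0.332, 1.69 and 0.492 CPM, against 6.35, 9.42, 2.61 and 4.497 CPM in *HisRFP* (log2 difference -2.98, SE 0.56, adjusted p = 0.0087), and *brat* het embryos had 5.87, 2.85, 5.78 and 4.69 CPM. The *brat*-mutant embryos lay below all others. Their *CG10527* reads alone fell short of the read filter, so this call and that against *brat* het embryos below are given as a description. With the replicate letter as a block the difference from *HisRFP* was no longer called, nor was that of *CG1233* or *CG33331*. Between *brat*-mutant and *brat* het embryos at NC12, 50 genes had enough reads, *CG12795* alone was higher (1.18% of all genes tested were higher) and *CG10527* alone was lower (log2 difference -2.73, SE 0.53, adjusted p = 0.0218, where 0.566% of all genes were lower). The *CG10527* call was lost without *brat*-mutant embryo A or D or *brat* het embryo A or D. Between *brat* het and *HisRFP* embryos at NC12, 6 of 50 genes were higher (2.26% of all genes). They were *CG6567*, *CG12795*, *CG1233*, *CG6607*, *CG11095* and *CG14931* (6.52 CPM in *brat* het and 2.45 CPM in *HisRFP*, log2 difference 1.41, SE 0.33, adjusted p = 0.0284). The count was 3 with the block, 2 without *brat* het embryo A or *HisRFP* embryo D and 3 without *brat* het embryo B or D or *HisRFP* embryo B, and *CG6567* and *CG12795* were called each time. *CG14931* was also lost without *brat* het embryo C.

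**Figure D5:**
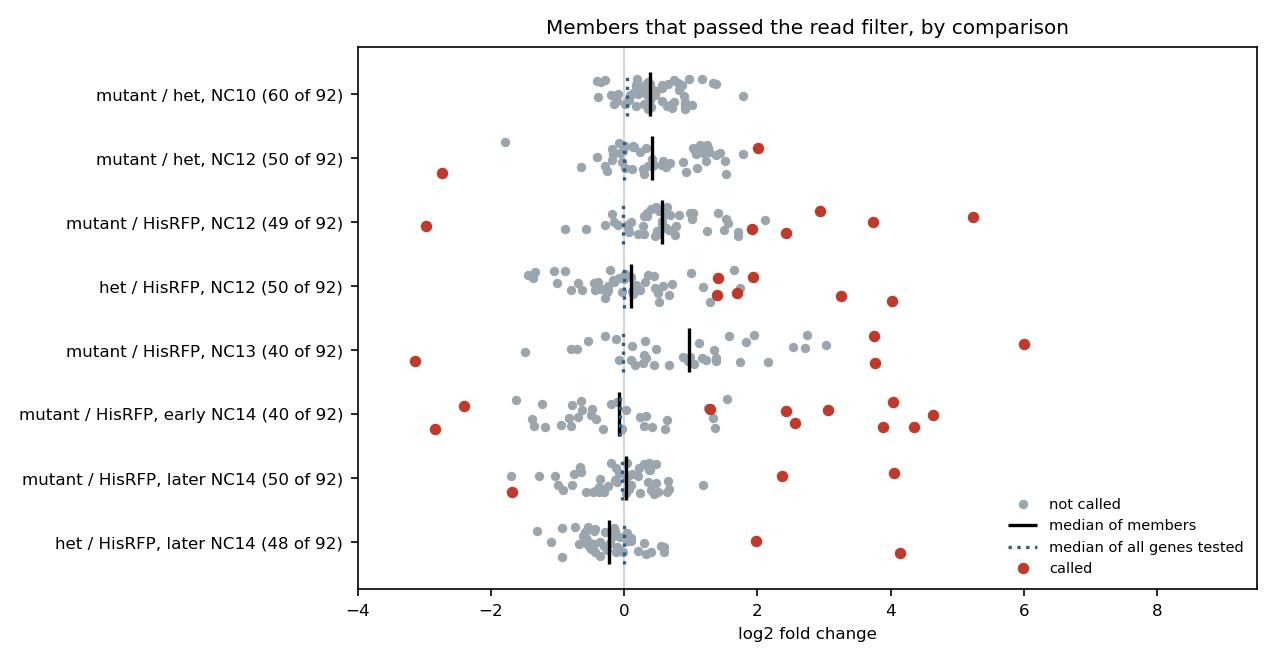
Log2 fold change of each member that passed the read filter (1 point a gene, called genes in red) for *brat*-mutant over *brat* het at NC10 and NC12 and for *brat*-mutant or *brat* het over *HisRFP* at NC12, NC13, early NC14 and later NC14, with bars at the median of the members and dotted bars at the median of all genes tested. *CG6567* lies between 3.74 and 4.14 in every comparison with *HisRFP*, and the medians of the *brat*-mutant comparisons with *HisRFP* are 0.57, 0.97, -0.07 and 0.03 in stage order.

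At NC13 and early NC14 little of the 59 genes' transcript was left, and more remained in *brat*-mutant embryos. They summed to 93.7, 234 and 186 CPM in *brat*-mutant, against 52.0, 38.0 and 48.6 CPM in *HisRFP* NC13 embryos, and to 104, 110, 85.4 and 83.5 CPM in *brat*-mutant, against 25.6, 30.7, 34.5 and 52.5 CPM in *HisRFP* early NC14 embryos, with no overlap at either stage. Without *CG12795* and *CG6567* the remaining 57 summed to 58.9 to 132 CPM in *brat*-mutant and 34.7 to 50.3 CPM in *HisRFP* embryos at NC13, and at early NC14 to 41.7 to 73.5 CPM in *brat*-mutant and 22.8 to 49.4 CPM in *HisRFP* embryos, where the groups overlapped. Genes at or below 1% of their own genotype's oocyte mean numbered 26 in *brat*-mutant and 44 in *HisRFP* embryos at NC13, and 37 in *brat*-mutant and 41 in *HisRFP* embryos at early NC14.

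By test, 3 of 40 genes exceeded their *HisRFP* level in *brat*-mutant NC13 embryos (*CG12795*, *CG11095* and *CG6567*, where 2.87% of all genes were higher) and *CG10527* was lower (1.04% of all genes). These NC13 calls were fragile with 3 embryos a group. No member was called with the replicate letter as a block or without *brat*-mutant embryo C or D or *HisRFP* embryo A or D, 1 was called without *HisRFP* embryo C and 3 without *brat*-mutant embryo A. At early NC14, 8 of 40 were higher (9.47% of all genes) and 2 were lower (4.35%), at a median log2 difference of -0.07 against -0.06 over all genes. The higher ones were *CG11095* (4.63, SE 0.64), *CG12795*, *CG9926* (4.03, SE 0.84), *CG6567*, *CG2540* (3.06, SE 0.84), *CG15014* (5.37 CPM in *brat*-mutant and 0.890 CPM in *HisRFP*, log2 difference 2.56, SE 0.71, adjusted p = 0.03), *CG18190* (2.44, SE 0.76) and *CG11122* (1.29, SE 0.37). The lower ones were *CG10527* (-2.83, SE 0.86) and *CG3792* (-2.40, SE 0.50). The number called was 6 with the block or without *brat*-mutant embryo C or *HisRFP* embryo B, and 5 without *brat*-mutant embryo A. The call on *CG15014* was lost without any one embryo other than *brat*-mutant B or C. *CG11095* at this stage had 2.73, 3.58, 1.95 and 3.29 CPM in *brat*-mutant, against 0.118, 0.168, 0 and 0.146 CPM in *HisRFP* embryos.

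At later NC14, when zygotic transcription is under way, transcripts of part of the group were back. The 59 genes summed to 251, 236, 206 and 220 CPM in *brat*-mutant, 229, 142, 280 and 210 CPM in *brat* het and 235, 141, 182 and 248 CPM in *HisRFP* embryos, so the genotypes overlapped. Genes at more than 10% of their own oocyte mean numbered 14 in *brat*-mutant, 12 in *brat* het and 16 in *HisRFP* embryos. In *HisRFP* embryos 33 of 61 genes were higher at later NC14 than at NC12 (21.7% of all genes tested) and 8 were lower (28.2%), with a median log2 change of 1.36 against 0.03 over all genes. In *brat*-mutant embryos 22 of 56 were higher (25.8% of all genes) and 14 lower (27.9%), with a median of 0.45 against 0.08, and in *brat* het embryos 19 of 50 were higher (20% of all genes) and 9 lower (27.7%), with a median of 0.58 against 0.06. Of the genes called higher, 7 in *HisRFP*, 6 in *brat*-mutant and 4 in *brat* het embryos had at most 3 reads in every NC12 embryo. Of those called lower, 2, 2 and 3 in the same order had as few in every later NC14 embryo. Such genes passed the read filter through 1 stage only, which fixed their direction. The counts and medians include them and are given as a description. The call of a higher level was made in all 3 genotypes for 16 genes, among them *CG34141*, whose NC12 mean was 0.169 CPM or less in each genotype. How many of all genes were called in all 3 genotypes was not counted, so this number too is a description.

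*CG1233* came back furthest relative to its *HisRFP* oocyte level. It had 40.1, 49.5, 36.5 and 37.2 CPM in *brat*-mutant, 34.3, 22.1, 49.2 and 24.1 CPM in *brat* het and 40.1, 18.9, 30.8 and 33.2 CPM in *HisRFP* later NC14 embryos, against 3.90, 1.44, 6.78 and 4.04 CPM in *brat*-mutant, 4.98, 2.79, 4.85 and 3.08 CPM in *brat* het and 1.75, 0.541, 0.747 and 0.916 CPM in *HisRFP* NC12 embryos. The log2 change was 3.76 (SE 0.35, adjusted p = 6.02e-06) in *brat*-mutant, 3.40 (SE 0.31, adjusted p = 1.35e-05) in *brat* het and 5.18 (SE 0.38, adjusted p = 2.82e-06) in *HisRFP* embryos, and its *HisRFP* later NC14 mean was 123% of its oocyte mean. *CG13884*, which it overlaps on the other strand, stood at 1.13 CPM or less in every library. Next in that share were *CG6607* (34.4%) and *CG3184* (27.9%). *CG8097* (log2 change 2.47 in *brat*-mutant, 3.05 in *brat* het and 2.15 in *HisRFP*) and *CG17660* (2.06, 2.12 and 2.65 in the same order) rose in all genotypes as well. Other transcripts stood lower at later NC14 than at NC12, though not all fell on from early NC14. In *HisRFP* embryos *CG17896* averaged 0.224 CPM at early and 0.830 CPM at later NC14, and *CG11122* 9.32 and 9.48 CPM. Against NC12, *CG17896* was lower by a log2 change of -2.66 in *brat*-mutant, -2.51 in *brat* het and -2.91 in *HisRFP* embryos, and *CG11122* by -2.47, -1.89 and -1.25. The *brat* het call on *CG17896* was lost without NC12 embryo A or B or later NC14 embryo A, B or C, and the *HisRFP* call on *CG11122* without NC12 embryo A or D or later NC14 embryo A or B.

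Between genotypes at later NC14 few members differed. In *brat*-mutant against *HisRFP* embryos 2 of 50 genes were higher (7.82% of all genes) and 1 lower (5.91%), with a median log2 difference of 0.03, and in *brat* het against *HisRFP* 2 of 48 were higher (2.13% of all genes) with a median of -0.23. *CG6567* was higher in both comparisons, which share the *HisRFP* embryos. *CG34141*, one of the uneven genes, had 19.4, 11.9, 20.4 and 12.7 CPM in *brat*-mutant, 4.63, 5.85, 4.499 and 3.29 CPM in *brat* het and 3.52, 2.14, 4.53 and 1.38 CPM in *HisRFP* embryos, and every *brat*-mutant embryo lay above all the others (log2 difference of *brat*-mutant to *HisRFP* 2.37, SE 0.37, adjusted p = 0.00172). It lies within *Pkn* on the same strand, which averaged 69.9 CPM in *brat*-mutant, 81.3 CPM in *brat* het and 62.1 CPM in *HisRFP* later NC14 embryos, and the part of that gene's reads in its count was not tested. *CG9864* was lower (2.40 CPM in *brat*-mutant and 7.39 CPM in *HisRFP*, log2 difference -1.69, SE 0.46), and *CG14931* was higher in *brat* het embryos (4.29 CPM in *brat* het and 1.07 CPM in *HisRFP*, log2 difference 1.98, SE 0.36, adjusted p = 0.0124). *CG14931* had 41 reads over the *HisRFP* embryos together and passed the filter of 50 reads only through the *brat* het ones, so its call is given as a description.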

How the data were processed

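Read counts per gene, as deposited by the authors, were used (raw counts, 1 oocyte or embryo a library). Per the study's methods and the submitters' processing notes, reads were aligned to dm6 with HISAT2 2.1.0, filtered with SAMtools so that multi-mapping reads were discarded, and counted without regard to strand with featureCounts 1.5.3. The submitters' notes also name R 4.1.0 and DESeq2 1.33.5. Of 17510 gene IDs, 17405 (99.4%) matched a symbol, and gene positions were taken from the Ensembl annotation of the same assembly (BDGP6, dm6).

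CPM was the count divided by the library total times 1000000. The 92 genes, the marker lists (eggshell 21 of 22 matched, germline 11 of 12, muscle 10, fat body and hemocyte 10) and the tests were chosen with earlier results of these data known. Tests used edgeR 4.0.16 (TMM factors, quasi-likelihood F-test) in R 4.3.3, on genes with at least 50 reads summed over the libraries compared, with Benjamini-Hochberg adjustment over all genes tested. SEs are the absolute log2 fold change over the square root of F. Named genes were the 10 with the highest *HisRFP* oocyte mean, up to 3 called per test and direction with non-overlapping groups and a mean of at least 5 CPM, those keeping most at NC10 or returning most at later NC14, those at the selection limits, and neighbours within 5 kb. Other genes named were chosen after their values were seen. *CG43147*, *CG42564* and *CG43392* fell under the rule for *brat*-mutant NC10 only through ratios of near-zero values.

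The test was tried on simulated counts. For *brat* het NC10 against oocytes (7232 genes) it called 97.8% of 4-fold and 99.0% of 8-fold changes, for *brat*-mutant against *HisRFP* at NC12 (6787 genes) 93.6% and 98.1%, and at NC13 (7179 genes) 60.0% and 72.5%. Replicates with the same letter deviated together (every correlation over 0.1) in 1 of 14 comparisons, *brat*-mutant against *brat* het at NC12, where 3 members were called with the replicate letter as a block, against 2 without it. DESeq2 1.42.0, other scaling and filters, all 62 libraries in 1 fit, the block, and each library left out were the alternatives. Sequences of the genes were not used here.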

Additional observations from a re-analysis of the deposited data

Results flagged for a closer look

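In 65 group-wise sets of 4 values for the summed patterns and for *CG12795*, *CG6567*, *CG10527* and *CG1233*, a single value lay far from the other 3 (Dixon's 95% criterion on the gap over the range) in 5, where chance gives about 1 in 20. The summed 15 genes of the third pattern stood at 2758 CPM in *HisRFP* oocyte B, against 0 to 0.455 CPM in the other *HisRFP* oocytes. These genes were grouped for having more than 90% of their *HisRFP* oocyte signal in 1 oocyte. That flag was therefore fixed in advance and is not to be set against chance. The summed 18 uneven genes stood at 21.4 CPM in *brat* het NC12 embryo C (2.04 to 2.91 CPM in its sisters) and at 19.3 CPM in *HisRFP* NC12 embryo C (2.30 to 5.16 CPM in its sisters). *CG6567* stood at 29.2 CPM in *brat* het NC12 embryo D (22.2 to 23.3 CPM in the others) and at 33.5 CPM in *brat*-mutant oocyte B (39.1 to 40.0 CPM in the others).

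The change between oocyte and NC10 was called different between *brat*-mutant and *brat* het samples for 4 uneven genes in edgeR's quasi-likelihood test. For 3 of them the outcome was fixed, since they passed the read filter only through the *brat* het oocytes and began at or near 0 in *brat*-mutant oocytes. Their fitted log2 differences of 12.36 (*CG43066*), 11.03 (*CG9932*) and 11.11 (*CG34141*) are no measure of a fold change and support nothing. *CG34417* averaged 2.63 CPM in *brat*-mutant and 37.8 CPM in *brat* het oocytes and had a log2 difference of 3.74 (SE 0.82, adjusted p = 0.0265).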

How the results depend on the processing

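For the 47 pairs of a named gene and a comparison, 663 of 724 alternatives kept the call and 61 lost it, 49 of these with a library left out, and no direction reversed. DESeq2 gave 10 members called for *brat*-mutant against *HisRFP* at NC12, 8 at NC13, 4 for *brat*-mutant against *brat* het at NC12 and 18 for the difference between genotypes in the change to NC10. Fitting all 62 libraries gave 10 at NC12, 11 at NC13 and 1 for that difference. Without a read filter 5 were called at later NC14. The replicate block gave 3 and 0 for *brat*-mutant against *HisRFP* at NC12 and NC13, 6 at early NC14 and 3 for *brat* het at NC12, and moved no other count by over 1.5 times. The labels do not state what same-lettered libraries share beyond the letter (pair correlations -0.758 to 0.747). With a library left out, the counts were 31 to 59 for *brat*-mutant NC10 against oocytes, 4 to 11, 0 to 3 and 5 to 8 for *brat*-mutant against *HisRFP* at NC12, NC13 and early NC14, 2 to 6 for *brat* het at NC12, 1 to 2 for *brat*-mutant against *brat* het at NC12 and 0 to 8 for the difference in change. Choosing genes at an eighth of the oocyte mean gave 53, with the uneven 18 and the 15 of 1 oocyte all kept, choosing without *HisRFP* oocyte B left 1 called for the difference in change, and leaving out single *HisRFP* oocytes or NC10 embryos gave 69 to 98. The cause was not tested. The share of all genes called under each setting is not set beside these counts. They show only how the number called moved with the setting, and nothing about the members is read from them.

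At NC13 and at early NC14, 40 of the 92 genes had enough reads to test. The counts are without molecular identifiers. The SEs and adjusted p-values of edgeR's quasi-likelihood test take in the spread between single oocytes or embryos as well as counting error. NC13 has 3 embryos a group.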
